A study of Mus musculus with 5 samples.

Results

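Heat shock and chaperonin genes encode the proteins that fold other proteins outside the endoplasmic reticulum (ER) and rescue them when they misfold. Cytosolic HSP70 proteins bind unfolded chains, J-proteins such as DNAJB1 deliver the chains to them, HSP110 proteins such as HSPH1 exchange their nucleotide, and HSP90 proteins finish the folding of many kinases and receptors. HSPD1 and HSPE1 form the barrel and the lid of the mitochondrial chaperonin. Heat and misfolded cytosolic protein activate the transcription factor HSF1, which binds heat shock elements, whereas stress of the ER is read by PERK, IRE1 and ATF6, so the cytosolic genes are a branch of protein quality control that lies beside the unfolded protein response. The set was chosen by gene name and holds 10 genes. Of these, 8 have a probe set annotated to a single gene symbol and were measured, among 22059 genes tested in all, and Hsf1 and Hsp90ab1 were not analysed here.

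RNA was measured on 5 Affymetrix Mouse 2.0 ST arrays of cells labelled as primary astrocytes, which were grown from the cortices of newborn FVB mice. LRRK2-WT cells (2 arrays) came from heterozygous mice that carry a wild-type LRRK2 transgene, and LRRK2-GS cells (3 arrays) came from heterozygous mice that carry the G2019S form, a mutation linked to Parkinson's disease. The cells of all 5 arrays had received tunicamycin, which blocks N-linked glycosylation and stresses the ER, at 0.2 μg/ml for 3 h by the labels, while the study's text gives a longer exposure and a legend also a lower dose. By the labels, each comparison therefore asks how the genotypes differ under this stress, and no untreated array was analysed here. Neither the promoter that drives the transgene nor any pooling of animals is stated in the methods or labels. Since no source describes the arrays as independent cultures, a p-value here reflects the spread among these arrays alone, and that spread may be technical.

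The labelled cell type was checked against markers before the genes were compared. Of 12 astrocyte markers, 8 had a mean log2 value above 3.39, the background set by the probe sets of olfactory receptors, and the 4 below it were Aqp4, S100b, Slc1a3 and Gjb6. Above the 90th percentile of the tested probe sets (6.42) lay 2 of the 12 astrocyte markers, Aldh1l1 and Glul, and all 11 measured hepatocyte markers. The number above it was 3 of 6 for endothelial markers and 2 of 8 for fibroblast and stellate cell markers. It was 1 of 8 for microglia and macrophage markers and 0 of 7 for measured oligodendrocyte and neuron markers. The summed signal of the astrocyte list, as log2, was 9.07 to 9.39 on the LRRK2-WT arrays and 8.68 to 9.34 on the LRRK2-GS arrays, and that of the hepatocyte list was 15.20 to 15.21 and 14.99 to 15.23. Xist differed by -5.73 and the Y-linked Eif2s3y by 4.24 between the genotypes (LRRK2-GS minus LRRK2-WT, log2). Xist read 8.49 and 8.09 in LRRK2-WT and at most 2.65 in LRRK2-GS. Eif2s3y read 2.03 and 2.31 in LRRK2-WT and at least 6.13 in LRRK2-GS. Both LRRK2-WT arrays thus read as female and the LRRK2-GS arrays as male, so sex and genotype cannot be told apart in any comparison here. The markers also went against the labelled cell type, so the cell type, culture and exposure rest on the labels and methods alone. The part of cell type in the results was not tested. In such bulk RNA, fewer cells of a type and less RNA per cell cannot be told apart.

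Promoter stretches are shown for the gene pairs on which the results turn and for the other member with a full match. Hspd1 and Hspe1 are neighbours on chromosome 1 and are read in opposite directions, with 215 bases between the annotated start of Hspe1 and 1 of the 2 annotated starts of Hspd1. Between those starts lies a run of heat shock element units at chr1:55088053-55088082 (RefSeq, GRCm38.p6, plus strand), with each unit, GAA or its complement TTC, in capitals.
Hspd1 and Hspe1: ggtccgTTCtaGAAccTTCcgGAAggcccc
The motif GAANNTTCNNGAA, searched on both strands, has overlapping matches here, at -89 and -84 from the start of Hspe1 and at -144 and -139 from that start of Hspd1. It occurs in 0.603% of the 32851 RefSeq promoters of the same length (250 bases before to 50 after a start). Hsph1 on chromosome 5 also holds a match, printed here with its units in capitals (chr5:149636282-149636306, minus strand), which begins at 15 after 1 of its 2 annotated starts.
Hsph1: tgcagaTTCtgGAAagTTCtcctca

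The inducible HSP70 genes Hspa1a and Hspa1b lie on chromosome 17, and the 150 bases before their starts are identical at 149 positions. Both are shown from the minus strand (chr17:34972157-34972306 and chr17:34959239-34959388), with the match to the shorter motif GAANNTTC in capitals.
Hspa1a: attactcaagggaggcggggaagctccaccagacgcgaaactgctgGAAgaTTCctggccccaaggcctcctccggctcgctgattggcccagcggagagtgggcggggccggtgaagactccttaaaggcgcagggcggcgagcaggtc
Hspa1b: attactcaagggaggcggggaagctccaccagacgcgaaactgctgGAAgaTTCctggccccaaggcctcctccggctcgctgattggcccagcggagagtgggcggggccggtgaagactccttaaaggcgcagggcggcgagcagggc
This match lies at -104 in both genes, and 7.86% of all promoters hold the shorter motif. The letters of the longer motif were in neither promoter window, nor in those of Dnajb1. Promoters of 6 of the 8 measured genes were found in the table. A match describes the letters and is no measured binding site.

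All 8 measured heat shock genes had a higher mean in LRRK2-GS, by 0.01 to 0.39 on the log2 scale, but none passed limma's test across all probe sets. The median difference of the 8 genes was 0.17, against 0.00 over all 23396 tested probe sets, of which 48.8% were higher in LRRK2-GS and 42.7% lower. With a threshold of 0.05 on the adjusted p and of 1.5-fold on the size, limma called 0 members and 0 probe sets in all (0%). Even Xist, with a difference of -5.73, was not called (limma adjusted p = 0.207). A missing call here or below therefore does not show that the genotypes are equal. At an unadjusted p under 0.05 and higher in LRRK2-GS, it gave 2 members, Hspd1 and Hspe1, while 1.13% of all probe sets met that rule. No member exceeded 1.5-fold, as 0.957% of all probe sets did. The direction depended on the arrays used, since without LRRK2-WT array 1 the median was 0.04 and 6 of the 8 members were higher, and without LRRK2-GS array 3 the number was also 6.

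**Figure D1:**
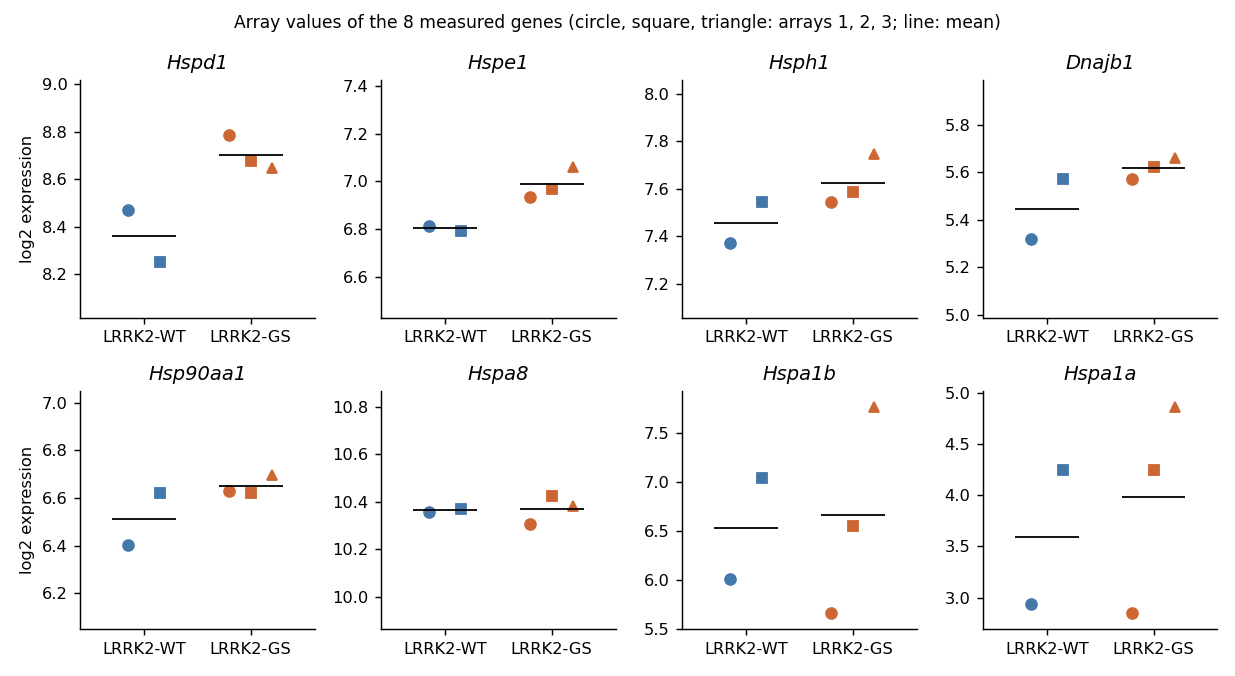
Log2 expression of each measured gene on every array, in a panel per gene, with LRRK2-WT (blue) and LRRK2-GS (orange) on the x axis and the group mean as a line. The y axes have their own ranges. Every LRRK2-GS array lies above both LRRK2-WT arrays for Hspd1 and Hspe1, and the arrays of each genotype lie far apart for Hspa1a and Hspa1b.

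The subunits of the mitochondrial chaperonin were the members whose genotypes did not overlap. Hspd1, the barrel subunit (HSP60), read 8.47 and 8.25 in LRRK2-WT and 8.78, 8.68 and 8.65 in LRRK2-GS. Every LRRK2-GS array thus lay above both LRRK2-WT arrays. The means were 8.36 ± 0.15 (SD, n = 2 arrays) and 8.70 ± 0.07 (SD, n = 3), a difference of 0.34 or 1.27-fold (SE 0.09, 95% confidence interval 0.08 to 0.60, limma adjusted p = 0.826). Hspe1, the lid subunit (HSP10), read 6.81 and 6.79 in LRRK2-WT and 6.93, 6.97 and 7.06 in LRRK2-GS, again without overlap. Its means were 6.80 ± 0.01 (SD, n = 2) and 6.99 ± 0.07 (SD, n = 3), which differed by 0.18 or 1.14-fold (SE 0.05, 95% confidence interval 0.05 to 0.32, limma adjusted p = 0.826). These pairs of means differ by more than the spread between arrays, although neither difference passed the test over all genes. Among all tested probe sets, 3.76% had all 3 LRRK2-GS arrays above both LRRK2-WT arrays. When each array was left out in turn, the difference stayed between 0.23 and 0.45 for Hspd1 and between 0.15 and 0.21 for Hspe1.

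The other mitochondrial folding genes were mixed in direction. Of the 10 measured genes of mitochondrial folding and quality control, 4 were higher, 5 lower and 1 equal in LRRK2-GS, and the median difference was 0.00. The equal gene, Trap1, held the same value of 7.47 on every array, so its equality is no measured result. The largest positive differences were those of Clpx (0.16) and Clpp (0.06), parts of the matrix protease, and the largest negative ones those of Grpel2 (-0.30) and Dnaja3 (-0.24), cofactors of mitochondrial HSP70. None passed limma's test at an adjusted p of at most 0.05, or at an unadjusted p under 0.05.

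**Figure D2:**
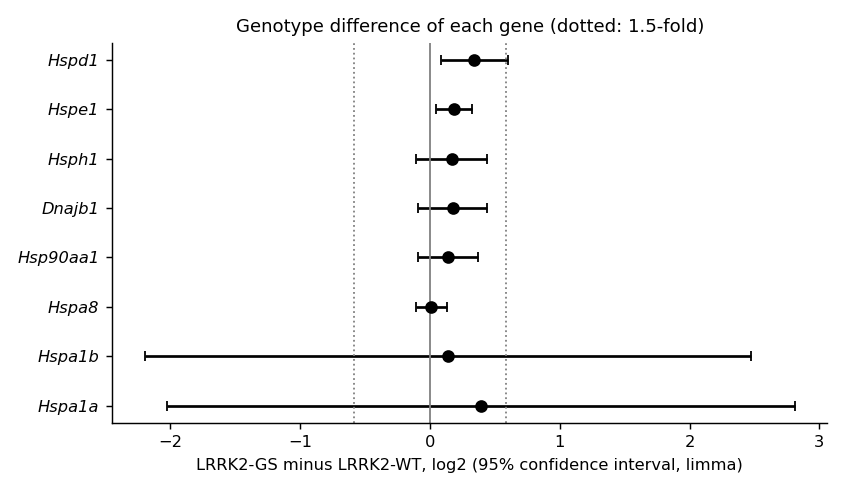
Difference between LRRK2-GS and LRRK2-WT for each measured gene on the log2 scale (x axis), as a point with limma's 95% confidence interval, with dotted lines at 1.5-fold. The intervals of Hspd1 and Hspe1 lie above 0, and those of Hspa1a and Hspa1b reach from under -2 to over 2.

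Hsph1, Dnajb1 and Hsp90aa1 showed small differences, with LRRK2-WT array 1 the lowest in each. Hsph1, the HSP110 exchange factor, read 7.37 and 7.54 in LRRK2-WT and 7.54, 7.59 and 7.75 in LRRK2-GS, and its means differed by 0.17 (95% confidence interval -0.11 to 0.44). Dnajb1, the J-protein of the HSP70 cycle (HSP40), read 5.32 and 5.57 in LRRK2-WT and 5.57, 5.62 and 5.66 in LRRK2-GS, and its means differed by 0.17 (95% confidence interval -0.09 to 0.44). In both, LRRK2-WT array 2 and LRRK2-GS array 1 held exactly the same value, so that the groups touch. Hsp90aa1, the inducible cytosolic HSP90, read 6.40 and 6.62 in LRRK2-WT and 6.63, 6.62 and 6.70 in LRRK2-GS, and its means differed by 0.14 (95% confidence interval -0.10 to 0.37). Here LRRK2-WT array 2 and LRRK2-GS array 2 were equal. limma's adjusted p was 0.826 for each of these genes, and without LRRK2-WT array 1 their differences were 0.08 for Hsph1, 0.05 for Dnajb1 and 0.03 for Hsp90aa1.

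Exact ties of this kind are a property of the deposited table, in which 77.8% of the tested probe sets repeated a value on 2 or more arrays. In 1989 probe sets the value was the same on all 5 arrays, as for Trap1, Hsf3 and Hspb3, the genes counted as equal in the lists. Ties touched 4 members, and each of them joined a LRRK2-WT array with a LRRK2-GS array. After quantile normalization or cyclic loess of the deposited values, Hsp90aa1, Hsph1 and Dnajb1 also had every LRRK2-GS array above both LRRK2-WT arrays. The number of members without overlap rose from 2 to 5 under either method, while the share over all probe sets rose to 8.87% and 6.33%, respectively.

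Hspa8, the constitutive HSP70 that folds new proteins in unstressed cells, was nearly the same on all arrays. Its brightest probe set read 10.36 and 10.37 in LRRK2-WT and 10.31, 10.42 and 10.38 in LRRK2-GS. The groups overlapped, and the means differed by 0.01 (limma adjusted p = 1, 95% confidence interval -0.11 to 0.13). That interval, which is of this probe set alone, holds no difference as large as that of Hspd1. The remaining 3 probe sets annotated to Hspa8 alone behaved differently. LRRK2-WT array 2 was the highest on each of them, at 9.79, 9.80 and 8.86, whereas LRRK2-WT array 1 read 9.14, 9.14 and 8.32. Their differences were -0.01, -0.03 and -0.26, and the mean over all 4 probe sets gave -0.08. The 95% confidence intervals of these differences were wider, at -0.66 to 0.63, -0.71 to 0.64 and -0.81 to 0.28. A further probe set, annotated to both Hspa8 and Snord14e, read 6.79 and 6.88 in LRRK2-WT. In LRRK2-GS it read 7.69, 6.68 and 7.09, so the groups overlapped. Hspa8 has many near-identical copies in the mouse genome, so it is uncertain which transcripts these probe sets read.

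The inducible HSP70 genes, the classical reporters of a heat shock response, varied most over the arrays, and within each genotype the arrays lay further apart than the genotype means. Hspa1b read 6.01 and 7.04 in LRRK2-WT and 5.66, 6.55 and 7.77 in LRRK2-GS. The LRRK2-GS arrays held both the lowest and the highest value, with both LRRK2-WT arrays between them. Hspa1a read 2.94 and 4.24 in LRRK2-WT and 2.85, 4.24 and 4.86 in LRRK2-GS, in the same order of arrays apart from a tie. On LRRK2-WT array 1 and LRRK2-GS array 1 it lay under the background level of 3.39. The differences were 0.14 for Hspa1b (SE 0.80, 95% confidence interval -2.20 to 2.47, limma adjusted p = 1) and 0.39 for Hspa1a (SE 0.83, 95% confidence interval -2.02 to 2.81, limma adjusted p = 0.921). Both turned negative without LRRK2-WT array 1 (-0.38 and -0.26) and without LRRK2-GS array 3 (-0.42 and -0.05). The transcripts of both genes are near copies, so it is uncertain how far each probe set reads its own gene. A probe set annotated to both genes read 2.25 and 2.80 in LRRK2-WT and 2.48, 2.48 and 2.93 in LRRK2-GS, all under the background level.

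The spread over arrays set these genes apart from the other members. From the lowest to the highest array, Hspa1b spanned 2.11 and Hspa1a 2.02 on the log2 scale, and only 0.303% and 0.350% of all probe sets spanned more. For Hspd1 the span was 0.53 (19.0% of probe sets spanned more) and for Hspa8 it was 0.12 (76.0%). By the summed distance between profiles centred on their means over the 5 arrays, the gene nearest to Hspa1b was Hspa1a (0.94). Outside the set, the nearest genes were Bcl6 (1.25), a transcriptional repressor, Cox7b (1.26), a subunit of cytochrome c oxidase, and Tedc2 (1.48). None of the other measured heat shock genes came nearer than 2.86. The distance is not scaled, so a gene with a small span lies far from Hspa1b whatever the shape of its profile.

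**Figure D3:**
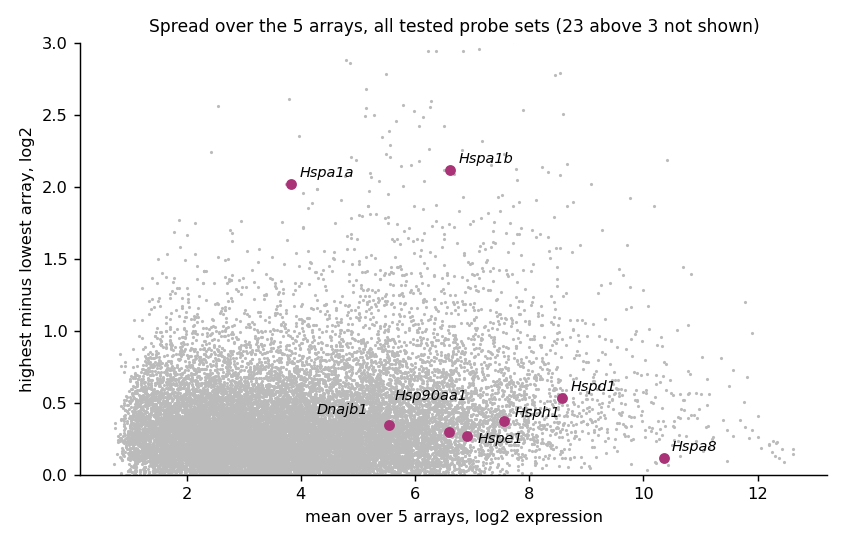
Span from the lowest to the highest of the 5 arrays (y axis, log2) against the mean log2 expression (x axis) for all tested probe sets (grey) and the 8 heat shock genes (purple). Hspa1a and Hspa1b span over 2 log2 units, and the other 6 span 0.53 or less. The axis ends at 3, with 23 probe sets above it.

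LRRK2-GS array 3 gave the highest value in 6 of the 8 members, a position it held alone in 17.7% of all tested probe sets. LRRK2-WT array 1 and LRRK2-GS array 1 were each the lowest in 3 members. They were lowest alone in 15.1% and 17% of all tested probe sets, respectively. Among known HSF1 targets outside the set, LRRK2-GS array 3 was the highest in 8 of 15. The ER chaperones, the counterpart in the secretory pathway, had low values on this array. All 11 measured ER chaperones had their lowest value on LRRK2-GS array 3, which was lowest alone in 17.8% of all tested probe sets. Hspa5 (BiP), the HSP70 of the ER, read 9.72 and 9.90 in LRRK2-WT and 10.11, 10.07 and 9.53 in LRRK2-GS. Hsp90b1, the HSP90 of the ER, read 11.84 and 11.85 in LRRK2-WT and 11.84, 11.90 and 11.39 in LRRK2-GS. The median difference of the ER chaperones was -0.13 with 8 lower and 3 higher, but 0.08 without LRRK2-GS array 3. Manf differed by 0.10, Dnajc3 by -0.20 and Calr by -0.20. For Calr and Canx, the lectin chaperones, no LRRK2-GS array reached either LRRK2-WT array, a pattern that 3.74% of all probe sets had. The groups nearly touched, with Calr at 10.887 on LRRK2-WT array 2 and 10.883 on LRRK2-GS array 1. Canx read 10.313 on LRRK2-WT array 2 and 10.307 on LRRK2-GS array 2. Only LRRK2-GS array 3 lay clearly lower, at 10.357 for Calr and 10.005 for Canx. Without LRRK2-GS array 3 the median of the 8 heat shock genes was 0.11, so that both medians were then above 0.

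**Figure D4:**
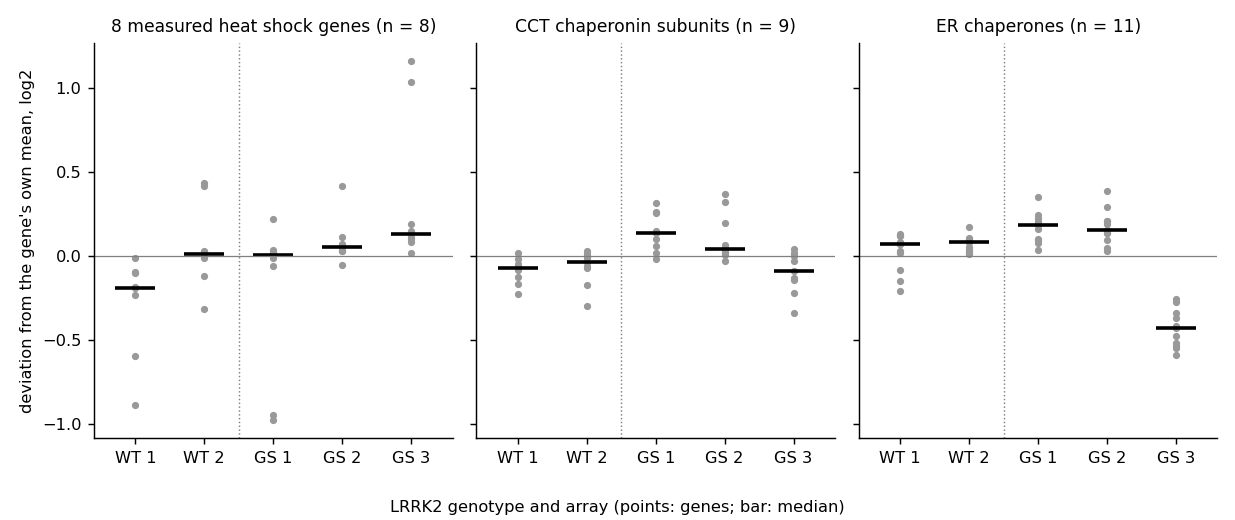
Deviation of each gene from its own mean over the 5 arrays (y axis, log2) by array (x axis) for the 8 heat shock genes, the 9 subunits of the CCT chaperonin and the 11 ER chaperones, with points for genes and bars for medians. On LRRK2-GS array 3 the heat shock genes have a median of 0.13 and the ER chaperones of -0.43.

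The cytosolic chaperonin, which folds actin and tubulin, was also higher in LRRK2-GS for each subunit, without any call. All 9 measured subunits of the CCT ring had a higher mean, by 0.01 to 0.29, with a median of 0.16, but Cct6b lay under the background level on every array, which leaves 8 of 8 above it. Cct7 read 7.09 and 6.84 in LRRK2-WT and 7.40, 7.18 and 7.18 in LRRK2-GS, and its means differed by 0.29 without overlap (95% confidence interval -0.07 to 0.64). Cct3 read 6.69 and 6.74 in LRRK2-WT and 7.07, 6.78 and 6.78 in LRRK2-GS, a difference of 0.16 without overlap. Cct5 had a difference of 0.21, with overlap. LRRK2-GS arrays 1 and 2 were the highest in 5 and 3 of the subunits, and LRRK2-GS array 3 was the highest in 0. Over all tested probe sets, LRRK2-GS arrays 1, 2 and 3 were highest alone in 20%, 15.8% and 17.7%, respectively. The median was 0.07 when array 1 or array 2 of LRRK2-GS was left out, and 0.08 with the mean over each gene's probe sets. Prefoldin, which hands chains to this ring, was mixed, with 2 of 5 measured subunits higher and 3 lower, from Pfdn6 (0.20, no overlap) and Pfdn5 (0.02) to Pfdn1 (-0.05) and Vbp1 (-0.20).

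Regulators and further targets of HSF1 had medians near 0. In the family and regulator list, 2 of 7 genes were higher, 4 lower and 1 equal, with a median of -0.05 that ranged from -0.09 without LRRK2-WT array 1 to 0.00 without LRRK2-WT array 2 or without array 1 of LRRK2-GS. Hsf3 and Hsf5 lay under the background level, and of the other 5 genes 2 were higher and 3 lower. Ier5, an immediate early gene that aids HSF1, read 4.41 and 4.13 in LRRK2-WT and 4.50, 4.86 and 4.43 in LRRK2-GS, a difference of 0.33 without overlap. Hsf2, a relative of HSF1, differed by -0.14, Hsbp1, which binds HSF1 and dampens it, by -0.11, and Dedd2 by 0.06. Among the 15 other HSF1 targets, 12 had a higher and 3 a lower mean in LRRK2-GS, and the median was 0.06, or -0.02 without LRRK2-GS array 3. Hspb1 (HSP27), a small heat shock protein that holds unfolded chains, read 3.39 and 3.84 in LRRK2-WT and 3.91, 4.17 and 3.91 in LRRK2-GS, a difference of 0.38 without overlap. Its value on LRRK2-WT array 1 lay at the background level of 3.39. Hspa4, an HSP110 gene, differed by 0.23, Serpinh1, the collagen chaperone, by -0.14 and Stip1 by -0.01. By limma, 0 genes of either list were called, also at an unadjusted p under 0.05.

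Cofactors of HSP70 and HSP90 were also measured, again without a call. Of 15 measured J-proteins and exchange factors of cytosolic HSP70, 11 were higher and 4 lower, from Dnajc5 (0.15) and Hspbp1 (0.13) to Bag4 (-0.04) and St13 (-0.03), and their median was 0.05, or 0.00 without LRRK2-WT array 1. Of 13 measured HSP90 co-chaperones, 5 had a higher and 8 a lower mean, and their median of -0.04 ranged from -0.08 to -0.01 when each array was left out in turn. Fkbp5, a glucocorticoid-induced immunophilin, read 5.91 and 6.05 in LRRK2-WT and 5.59, 5.80 and 5.58 in LRRK2-GS, and its means differed by -0.32 without overlap (95% confidence interval -0.61 to -0.04, limma adjusted p = 0.826). Ptges3 (p23), which stabilises closed HSP90, differed by -0.38 with overlap, and Ppid and Chordc1 by 0.12 and 0.07. Among 8 further HSP70 and HSP110 genes, 5 were higher and 3 lower, with Hspa12b (0.25, no overlap) the largest, followed by Hspa4. Hspa4l differed by -0.01, and the means of Hspa1l and Hspa2 lay under the background level, which leaves 4 higher and 2 lower. Of 8 measured small heat shock proteins, 6 were higher, 1 lower and 1 equal, from Hspb1 (0.38) and Cryab (0.12) to Cryaa (-0.09), but Cryaa and Hspb3, the equal gene, lay under the background level, which leaves 6 of 6 higher. The values of Cryab in LRRK2-WT (3.39 and 3.40) and of Hspb1 on LRRK2-WT array 1 (3.39) lay close to the background level of 3.39. The median of the 8 small heat shock proteins was 0.06, and 0.01 without LRRK2-GS array 3. Over all these lists, which overlap in part, 89 genes outside the set were measured, with 49 higher, 37 lower and 3 equal, a median of 0.03, and 0 calls by limma. At an unadjusted p under 0.05 limma gave 2 of the 89, Hspa12b and Fkbp5, a share near the 2.09% of all tested probe sets that met that rule.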

How the data were processed

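The authors hybridised RNA to Affymetrix Mouse 2.0 ST arrays, exported the arrays with the Command Console software and deposited log2 expression values for 33640 probe sets. Their summarization and normalization are not stated in the methods or labels. The deposited log2 values were used unchanged. The 23396 probe sets with a single gene symbol in the platform annotation were tested, with symbols updated through gene IDs to RefSeq (GRCm38.p6) for 23203 of them. The brightest probe set stood for a gene.

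LRRK2-GS was compared with LRRK2-WT with limma 3.58.1 in R 4.3.3 (lmFit and eBayes, no block, 2-sided), adjusted by Benjamini-Hochberg over all tested probe sets. Calls had to pass 0.05 on the adjusted p and 1.5-fold on the size, as in the methods. The prior had 0.595 degrees of freedom. As background, the 95th percentile over 1107 probe sets of olfactory receptors was taken. The steps were tested on simulated data. Precision is limited by the number of arrays.

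The members and gene lists were chosen with earlier results of these data known. All members were named, together with up to 2 rises and 2 falls in each list, and the 3 genes nearest in profile to the member with the widest span. Cct3, Canx and Hsp90b1 were added after their values were seen. Alternatives were cyclic loess or quantile normalization, array weights, a trended robust prior, leaving out dim probe sets, averaging the probe sets of a gene, a block for the replicate number, the methods' t-test and each array left out in turn. Promoter motifs were searched in RefSeq promoters with Python 3.11.15.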

Additional observations from a re-analysis of the deposited data

How the results depend on the processing

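With each array left out in turn, the calls over all genes ranged from 0 to 28 (26 and 28 without array 1 and array 2 of LRRK2-WT) and none was a member. Members over 1.5-fold ranged from 0 to 2 (2 when array 2 of LRRK2-WT or array 1 of LRRK2-GS was left out). Members without overlap ranged from 2 to 5 and the median of the members from 0.04 to 0.25. With fewer arrays, any probe set meets these rules more easily. The shares over all probe sets are not given for these runs, so their counts are no result about the members. A genotype with 1 array left is assumed to vary like the other. The difference of Hspa1a ranged from -0.26 to 1.05, that of Hspa1b from -0.42 to 0.65 and that of Hspa8 from -0.02 to 0.04. Members without overlap numbered 5 after quantile normalization and 5 after cyclic loess, alternatives chosen after seeing the data. The mean over probe sets gave -0.08 for Hspa8. Of 64 member differences under the other 8 alternatives, 61 kept their direction and none passed the threshold. The trended robust prior, the methods' t-test and the filter on dim probe sets leave the differences themselves unchanged. Under these alternatives the direction could not change. Averaging probe sets could change it for Hspa8 alone, the only member with several. The count therefore overstates how far the direction was tested. limma gave 489 probe sets at an unadjusted p under 0.05 and the methods' t-test 331, with 0 calls over 1.5-fold after adjustment for each.

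Replicate numbers 1 and 2 occur in both genotypes, and the deviations of same-numbered arrays correlated at -0.126 and 0.0878 across probe sets. The deviations of the 2 LRRK2-WT arrays mirror each other, so these values are not independent and cannot settle whether the arrays were paired. The arrays were taken to share only a number. With the replicate block, LRRK2-GS array 3 no longer contributes to the difference, which was -0.05 for Hspa1a and -0.42 for Hspa1b, and 0 genes were called, with 1404 probe sets at an unadjusted p under 0.05.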
